A study of Mus musculus with 15 samples.

Results

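Expression of the chemokine system was examined in the lungs of mechanically ventilated mice through 43 genes, 30 chemokine ligands and 13 chemokine receptors. Members were the genes of a fixed list of chemokines and chemokine receptors whose symbol stood alone on at least 1 row of the expression table. All 43 were found, among 19934 genes with a row of their own and 28361 rows in all. Each row reports 1 group of array probes, called a probe set here. Where a gene had several, the probe set with the highest mean log2 intensity over the 15 arrays was used, which concerned Ccl19 with 5 rows and Ccl25 with 2.

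The study compared 3 groups of 5 male C57BL/6N mice, and 1 array was hybridised per mouse. The 80 ppm H2S ventilated mice received hydrogen sulfide in synthetic air for 6 h from a ventilator delivering tidal volumes of 12 ml/kg at an end-expiratory pressure of 2 cmH2O. The air ventilated mice had the same ventilation with synthetic air alone, and the control mice breathed synthetic air without a ventilator over the same 6 h. Ketamine and acepromazine anaesthesia, an arterial line and a tracheal tube were common to all groups, controls included. The methods also describe mice that breathed H2S spontaneously, which were not analysed here, so H2S is compared only under ventilation. RNA came from a homogenate of the whole inferior right lobe. The methods also describe collection of bronchoalveolar lavage fluid at the end of the experiments, named before the lobes. They do not say whether this lobe was washed. Leukocytes removed with that fluid would be missing from the lobe RNA, so marker levels are not counts of all lung leukocytes.

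Chemokines are small secreted or membrane-tethered proteins that guide leukocytes along concentration gradients by binding G protein-coupled receptors on the cell surface. Inflammatory members such as Cxcl1, Cxcl2 and Ccl2 recruit neutrophils and monocytes to injured lung, whereas homeostatic members such as Cxcl12 and Cxcl13 hold or position leukocytes in resting tissue. Several ligands share 1 receptor and most receptors bind several ligands, and atypical receptors take chemokines up without classical signalling.

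The arrays had median intensities of 179 to 187, and arrays of the same group correlated at 0.984 to 0.994. The labels give every mouse a first number and a running number. Mice with running numbers 1 to 12 (3 per group) and 20 to 28 (2 per group) were separated on the first principal component of the variation within groups, which held 26.1% of it, and 1775 probe sets differed between them. The labels do not say what the numbers stand for, so fold changes within each number set are given beside the main results. Values per mouse are listed by running number, that is 4, 8, 12, 20 and 28 in the H2S ventilated group, 2, 6, 10, 22 and 26 in the air ventilated group and 1, 5, 9, 21 and 25 in the control group.

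Among markers of the cell types that a lung lobe can hold, all 8 B cell markers fell with both kinds of ventilation. Their mean log2 intensity was 6.96 to 7.75 in H2S ventilated mice and 7.00 to 8.08 in air ventilated mice, against 8.23 to 8.95 in control mice. Of 13 neutrophil markers, Retnlg and Mmp8 rose in both groups and the other 11 did not pass, with list means of 8.69 to 9.31 in H2S ventilated, 8.85 to 9.17 in air ventilated and 8.41 to 8.95 in control mice. Of 9 alveolar macrophage markers, 5 rose with H2S (Marco, Mrc1, Pparg, Fabp4 and Krt79) and 1 with air (Mrc1), with list means of 9.14 to 9.47 in H2S ventilated, 9.02 to 9.23 in air ventilated and 8.75 to 8.98 in control mice. Of 6 endothelial markers, Kdr and Tek fell in both groups and the other 4 did not pass. The list means were 11.56 to 11.7 in H2S ventilated, 11.62 to 11.75 in air ventilated and 11.8 to 11.97 in control mice. None of the 7 T cell, 6 NK cell, 7 alveolar epithelial or 3 club cell markers passed the test in any comparison. All 6 NK cell markers stood below 0 against control, with median log2 fold changes of -0.50 with H2S and -0.55 with air. Of the 9 monocyte markers, 2 rose and 1 fell with H2S, and none passed with air, where 7 were negative. Of the 7 dendritic cell markers Cd209a fell in both groups, of the 4 eosinophil markers Ear6 rose with H2S, and of the 6 fibroblast and pericyte markers Pdgfrb fell with H2S. Between H2S and air, Pparg alone among all these markers passed, at 0.39 (adjusted p = 0.0317).

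Relative to control, ventilation with H2S was followed by higher levels of 4 members and lower levels of 5. The 4 that rose were Ccl9, Ccl6, Cxcl16 and the neutrophil receptor Cxcr2, and the 5 that fell were Cxcl12 and its receptor Cxcr4, Cx3cl1 and its receptor Cx3cr1, and the B cell receptor Cxcr5. Ventilation with air was followed by no higher and 6 lower members, namely Cxcl12, Cxcl14, Ccr7, Cxcr5, Cx3cr1 and Cxcr4. A member passed when limma, a linear model fitted to all probe sets with a shared estimate of variance, gave an adjusted p under 0.05 over all 28361 probe sets. Among all probe sets, 3.92% rose and 3.93% fell with H2S, and 1.56% rose and 1.89% fell with air. The members that fell made up 11.6% of the list with H2S and 14.0% with air, and those that rose 9.3% and 0.0%. Both comparisons use the same 5 control mice and so are not independent of each other. The list median of the log2 fold change was 0.0054 with H2S and -0.16 with air, beside medians of 0.0023 and 0.0135 over all probe sets.

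**Figure D1:**
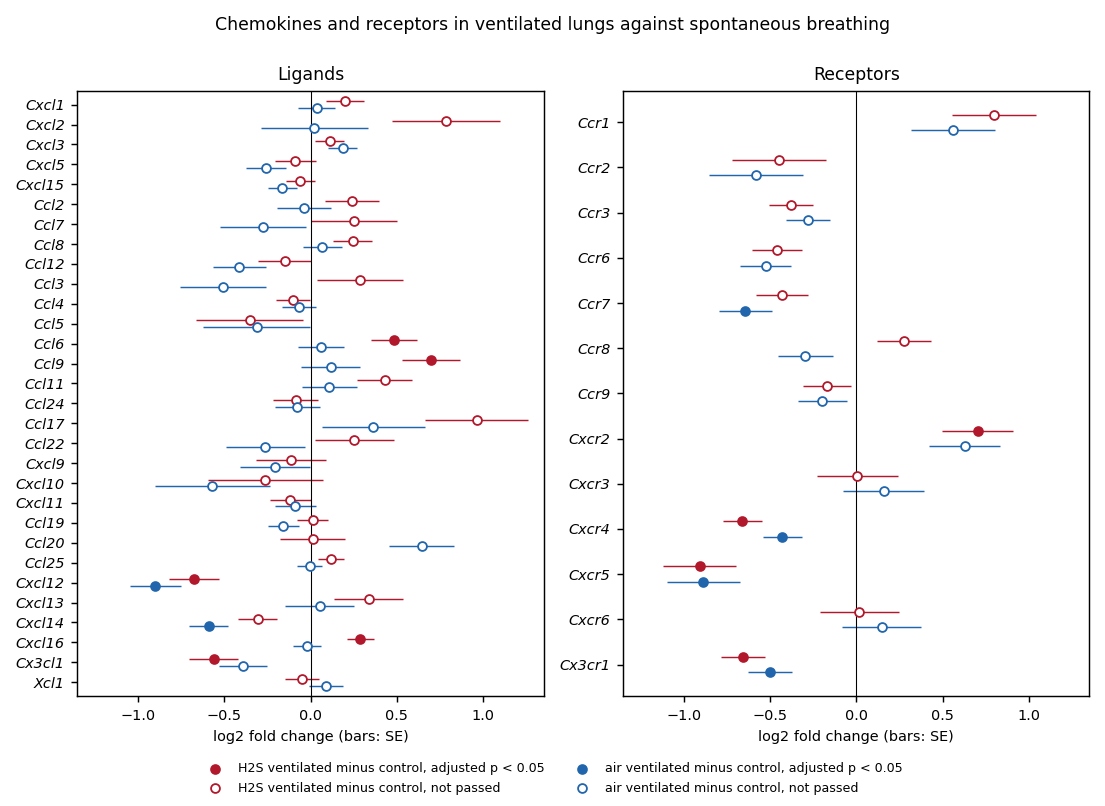
Log2 fold change of each ligand (left) and receptor (right) against control, for H2S ventilated mice (red) and air ventilated mice (blue), with bars of 1 SE from the limma fit and 5 mice per group. Filled points passed at an adjusted p under 0.05: 4 members are filled on the positive side, all of them red, and Cxcl12, Cxcr4, Cxcr5 and Cx3cr1 are filled on the negative side in both colours.

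The study's own thresholds (unadjusted p up to 0.005, adjusted p up to 0.1 and a change of 1.7-fold or more) were met by few members. With H2S these were Ccr1, which was 1.74-fold higher, and Cxcr5, which was 1.88-fold lower, where 0.656% of all probe sets were called higher and 0.79% lower. With air they were Cxcl12, 1.86-fold lower, and Cxcr5, 1.85-fold lower, where 0.342% of all probe sets were called higher and 0.617% lower. Groups without overlap, that is with every mouse of one group above every mouse of the other, were found with H2S for 3 higher and 5 lower members and with air for 0 higher and 3 lower members. Over all probe sets the corresponding shares were 4.11% and 4.09% with H2S and 2.65% and 2.9% with air.

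Cxcl12, a chemokine of stromal and endothelial cells that retains leukocytes bearing Cxcr4, showed the lowest fold change of all ligands in both comparisons. Its intensity was 526, 555, 434, 651 and 537 in H2S ventilated mice, 410, 478, 352, 592 and 501 in air ventilated mice, and 1037, 775, 999.8, 688 and 835 in control mice. Every ventilated mouse of either group lay below every control mouse. The log2 fold change was -0.68 with H2S (SE 0.15, adjusted p = 0.00884) and -0.90 with air (SE 0.15, adjusted p = 0.00402). In mice numbered 1 to 12 it was -0.89 with H2S and -1.18 with air, and in mice numbered 20 to 28 it was -0.36 and -0.48. Kdr and Tek, of the 6 endothelial markers, also fell in both groups, and the part of these markers in the result was not tested.

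Cxcr4, the signalling receptor of Cxcl12 on most leukocytes, was lower in the same direction. Its intensity was 1167, 975, 1058, 1249.8 and 1263 in H2S ventilated mice, 1396, 1087, 1314, 1511 and 1410.2 in air ventilated mice, and 1848, 1920.2, 1927, 1393 and 1967 in control mice. All H2S ventilated mice lay below all controls, whereas air ventilated mice overlapped with the control mouse numbered 21. Cxcr4 fell by 0.66 with H2S (SE 0.11, adjusted p = 0.00213) and by 0.43 with air (SE 0.11, adjusted p = 0.0487). The call with H2S held whichever mouse was left out. The call with air was lost in 12 of 15 such fits, all but those without control mouse 21, air mouse 22 or H2S mouse 8, with fold changes of -0.45 to -0.35 and adjusted p of 0.0548 to 0.127. The fold changes were -0.84 and -0.40 with H2S and -0.59 and -0.18 with air in mice numbered 1 to 12 and 20 to 28, the order kept for all later pairs of number sets.

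Cx3cl1, or fractalkine, is tethered to endothelial and epithelial membranes and binds Cx3cr1, a receptor of monocytes and macrophages. Intensities of Cx3cl1 were 430.0, 515, 323, 480 and 444 in H2S ventilated mice, 458, 373, 452, 610.2 and 583 in air ventilated mice, and 688, 573, 571, 671 and 709 in control mice. H2S ventilated mice were all below the controls, and among air ventilated mice those numbered 22 and 26 reached the control range. The ligand fell by 0.56 with H2S (SE 0.14, adjusted p = 0.0216) and stood at -0.39 with air (SE 0.14, adjusted p = 0.177). By CyberT, the test that the study used, it also passed with air (adjusted p = 0.0236). The call with H2S was lost without control mouse 25 (-0.53, adjusted p = 0.0578) or without H2S mouse 12 (-0.46, adjusted p = 0.0549). Both number sets gave similar values with H2S, at -0.55 and -0.58. Here too the part of the endothelial markers, of which Kdr and Tek fell in both groups, was not tested.

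Intensities of Cx3cr1 were 237, 199, 215, 255 and 219 in H2S ventilated mice, 243, 217, 234, 345 and 229 in air ventilated mice, and 346, 398, 323, 292 and 427 in control mice. The air ventilated mouse numbered 22 stood apart from the other 4 of its group and within the control range, and all H2S ventilated mice lay below the controls. The receptor fell by 0.66 with H2S (SE 0.13, adjusted p = 0.00474), a call held whichever mouse was left out, and by 0.50 with air (SE 0.13, adjusted p = 0.042). The call with air held in only 4 of 15 fits that left out 1 mouse, those without control mouse 21, air mouse 22, H2S mouse 20 or H2S mouse 8. In the other 11 the fold change was -0.53 to -0.43 with adjusted p of 0.0508 to 0.114. Split by number set it was -0.71 and -0.58 with H2S and -0.61 and -0.33 with air. Of the 9 monocyte markers, Treml4 fell with H2S and Cd14 and Ace rose, and none passed with air. Ace was by far the brightest of the 9, at a mean log2 intensity of 12.8 with H2S and 12.6 in controls. The list median was 0.22 with H2S (4 of 9 negative) and -0.41 with air (7 of 9 negative). Ms4a4c, at -1.43 with air, met the study's thresholds there. The 6 NK cell markers, none of which passed, had medians of -0.50 with H2S and -0.55 with air. The part of these markers in the result was not tested.

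Cxcr5, which brings B cells into follicles along Cxcl13, had a dim probe set, below the level used to drop dim probe sets in an alternative fit. It read 56.4, 48.4, 39.4, 61.3 and 61.1 in H2S ventilated mice, 48.6, 41.4, 40.6, 85.3 and 62.1 in air ventilated mice, and 122, 81.9, 103, 70.5 and 129 in control mice. H2S ventilated mice were all below the controls, and the air ventilated mouse numbered 22 overlapped with them. The fold change was -0.91 with H2S (SE 0.21, adjusted p = 0.0137) and -0.89 with air (SE 0.21, adjusted p = 0.0273). The call with air was lost without control mouse 25, 1 or 9 or air mouse 6, 10 or 2, at fold changes of -0.87 to -0.79 and adjusted p of 0.0718 to 0.0821. Split by number set it was -1.09 and -0.64 with H2S and -1.22 and -0.39 with air. All 8 B cell markers fell in the same mice, with a median of -1.15 with H2S and -1.03 with air, and their part in the result was not tested. In a homogenate, fewer cells of a type and less RNA per cell cannot be told apart. Its ligand Cxcl13 did not pass, at 0.34 with H2S (SE 0.20, adjusted p = 0.387) and 0.05 with air (SE 0.20, adjusted p = 0.98).

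Ccr7, which directs dendritic cells and T cells to lymph nodes, fell with air by 0.64 (SE 0.15, adjusted p = 0.0271) and stood at -0.43 with H2S (SE 0.15, adjusted p = 0.103). By CyberT it also passed with H2S (adjusted p = 0.0237). Its intensity was 652, 684, 491, 449 and 537 in H2S ventilated mice, 513, 557, 388, 566 and 403 in air ventilated mice, and 829, 668, 777, 584 and 931 in control mice. Air ventilated mice were all below the controls, and H2S ventilated mice overlapped with both groups. The call with air was lost without control mouse 25, 1 or 9 or air mouse 10 or 26, at -0.63 to -0.56 and adjusted p of 0.0685 to 0.082. In the number sets the fold change with air was -0.65 and -0.63. Ccl19, a ligand of Ccr7, did not pass, at 0.01 with H2S and -0.16 with air (SE 0.09 each), and its 5 rows gave fold changes of 0.00 to 0.01 with H2S and -0.17 to -0.12 with air.

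Cxcl14, an epithelial and stromal chemokine with no settled signalling receptor, fell with air by 0.59 (SE 0.12, adjusted p = 0.00906) and stood at -0.31 with H2S (SE 0.12, adjusted p = 0.125). It read 1286, 1388, 1363, 1162 and 1035 in H2S ventilated mice, 805, 1002, 1035, 1164 and 1125 in air ventilated mice, and 1364, 1856, 1587, 1406 and 1498 in control mice. Every air ventilated mouse was below every control, and the H2S ventilated mouse numbered 8 overlapped with them. The call with air held whichever mouse was left out, and the fold change was -0.76 in mice numbered 1 to 12 and -0.34 in those numbered 20 to 28.

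**Figure D2:**
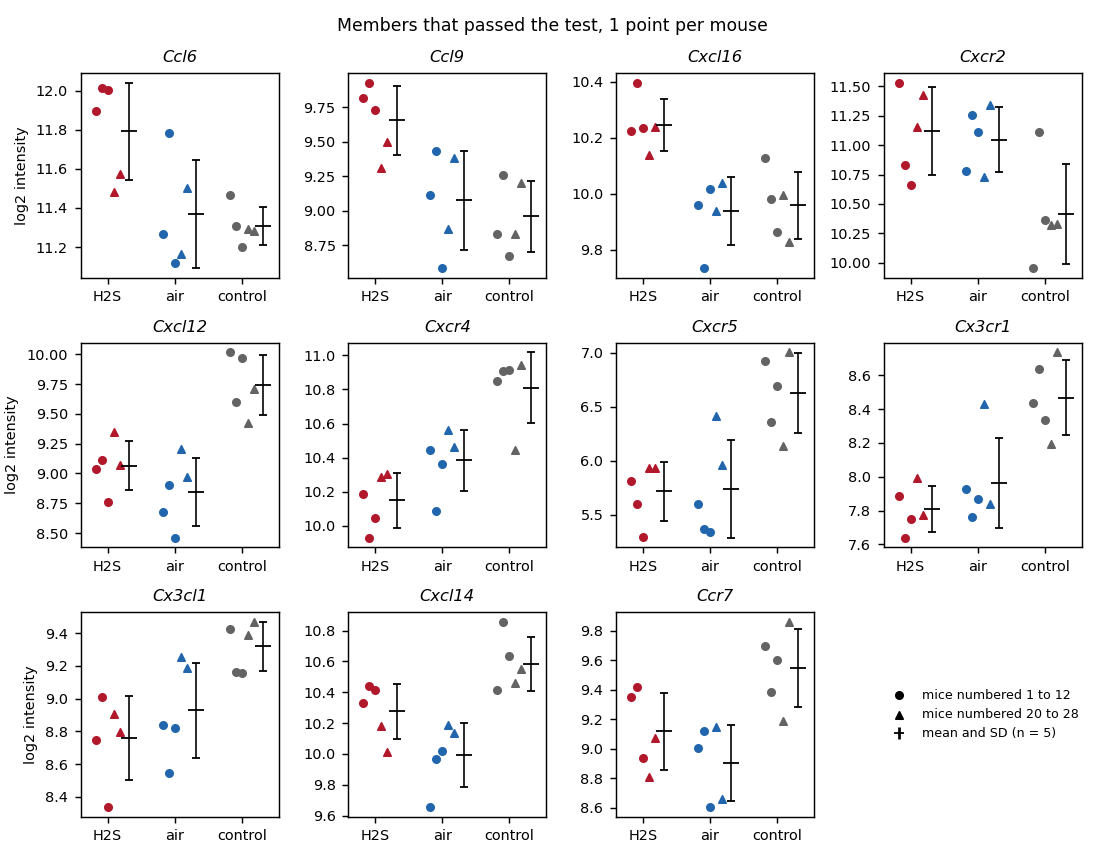
Log2 intensity in every mouse for the 11 members that passed the test in at least 1 comparison with control, with H2S ventilated (left), air ventilated (middle) and control mice (right). Circles are mice numbered 1 to 12, triangles those numbered 20 to 28, and bars show the mean and SD of 5 mice. All H2S ventilated mice stand above the controls for Ccl6, Ccl9 and Cxcl16 and below them for Cxcl12, Cxcr4, Cxcr5, Cx3cr1 and Cx3cl1.

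Ccl9 and Ccl6, neighbouring genes on chromosome 11 for myeloid chemokines that bind Ccr1 and are known from rodents, both rose with H2S. Ccl9 read 904, 976, 849, 634 and 724 in H2S ventilated mice, 555, 690.1, 383, 466 and 666 in air ventilated mice, and 455, 612, 408, 456 and 589 in control mice. All H2S ventilated mice lay above the controls, and air ventilated mice spanned the control range and beyond it on both sides. Its fold change was 0.70 with H2S (SE 0.17, adjusted p = 0.017) and 0.12 with air (SE 0.17, adjusted p = 0.891). The call with H2S was lost without control mouse 9 (0.63, adjusted p = 0.0512). Within the number sets the fold change with H2S was 0.91 and 0.39.

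Ccl6 read 3808, 4129, 4104, 2860.2 and 3049 in H2S ventilated mice, 2460, 3529, 2223, 2297 and 2905 in air ventilated mice, and 2828, 2536, 2353, 2505 and 2486 in control mice. The H2S ventilated mice were again all above the controls, with the 3 mice numbered 4, 8 and 12 above those numbered 20 and 28. Ccl6 was at 0.48 with H2S (SE 0.13, adjusted p = 0.0332) and 0.06 with air (SE 0.13, adjusted p = 0.944). The call with H2S was lost without control mouse 21, 25, 9 or 5 or H2S mouse 12, 8 or 4, at 0.43 to 0.48 and adjusted p of 0.0604 to 0.0852. In the 2 number sets it was 0.64 and 0.24. Alveolar macrophage markers rose in the same mice, 5 of 9 with H2S, and their part in these results was not tested.

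Promoters of Ccl9 and Ccl6 are shown because these neighbours moved together. They are the 250 bases before each start, from RefSeq on build GRCm38.p6 and read on the minus strand, with capitals for matches to AP-1 (letters TGANTCA) and to the NF-kB motif, searched on both strands. Ccl9 (chr11:83578637-83578886) held 1 match of each, which do not overlap, and Ccl6 (chr11:83593088-83593337) held neither.
Ccl9: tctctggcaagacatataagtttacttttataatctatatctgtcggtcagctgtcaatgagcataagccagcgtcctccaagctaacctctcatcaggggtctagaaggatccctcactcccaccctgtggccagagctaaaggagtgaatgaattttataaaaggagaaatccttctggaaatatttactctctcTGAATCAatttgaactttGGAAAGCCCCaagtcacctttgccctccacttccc
Ccl6: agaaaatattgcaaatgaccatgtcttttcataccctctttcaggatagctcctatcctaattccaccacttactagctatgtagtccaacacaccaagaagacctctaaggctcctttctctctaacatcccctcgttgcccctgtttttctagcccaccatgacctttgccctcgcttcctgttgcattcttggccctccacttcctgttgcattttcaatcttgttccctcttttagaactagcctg
Of 32851 promoters searched over the same 250 bases, 6.75% held the AP-1 letters and 7.25% the NF-kB motif. Of the 43 members, 32 had a promoter in the table, 34 promoters in all, of which 3 held AP-1 and 9 held NF-kB. The matches describe these letters and are not measured binding.

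Cxcl16 is a membrane-tethered chemokine of macrophages and epithelium that also acts as a scavenger receptor and binds Cxcr6. It read 1196, 1349, 1204, 1129 and 1209 in H2S ventilated mice, 997, 852, 1036, 983 and 1052 in air ventilated mice, and 1118, 1012, 931, 1021 and 909 in control mice. Every H2S ventilated mouse was above every mouse of both other groups. The change was small and the spread narrow, at 0.29 with H2S (SE 0.08, adjusted p = 0.0355) and -0.02 with air (SE 0.08, adjusted p = 0.98). The call with H2S was lost in 8 of 15 fits without 1 mouse, at 0.25 to 0.30 and adjusted p of 0.0544 to 0.0967. It held without control mouse 1, without H2S mouse 20 and without any air ventilated mouse. Within the number sets the fold change was 0.29 and 0.28. Cxcr6 did not pass, at 0.02 with H2S and 0.15 with air (SE 0.23 each).

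Cxcr2, the main receptor by which neutrophils follow Cxcl1, Cxcl2 and Cxcl5, read 2961, 1817, 1622, 2283 and 2744 in H2S ventilated mice, 1758, 2439, 2211, 1701 and 2602 in air ventilated mice, and 991, 2209.8, 1322, 1279 and 1286 in control mice. A single control mouse, numbered 5, lay within the range of both ventilated groups, and the other 4 controls lay below all ventilated mice. The fold change was 0.70 with H2S (SE 0.21, adjusted p = 0.0461) and 0.63 with air (SE 0.21, adjusted p = 0.123). The call with H2S was lost in 11 of 15 fits without 1 mouse, all but those without control mouse 5, air mouse 22 or H2S mouse 12 or 8, at 0.59 to 0.70 and adjusted p of 0.0504 to 0.118. With air it passed without control mouse 5 (0.80, adjusted p = 0.0313) and by CyberT (0.63, adjusted p = 0.00298). Within the number sets it was 0.53 and 0.96 with H2S. Of 13 neutrophil markers, Retnlg and Mmp8 were higher by 1.23 and 1.94 with H2S and by 1.15 and 1.88 with air. The other 11 did not pass, and the list median was 0.07 with H2S and 0.13 with air. The part of these markers in the result was not tested.

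Ccr1, a receptor of monocytes and neutrophils for Ccl3, Ccl5, Ccl6 and Ccl9, had the highest fold change of the receptors with H2S but missed the adjusted threshold. It read 508, 289, 263, 365 and 519 in H2S ventilated mice, 264, 357, 370, 218 and 422 in air ventilated mice, and 170, 373, 197, 206 and 178 in control mice. The same control mouse as for Cxcr2, numbered 5, stood apart from its group and within the ventilated range. The fold change was 0.80 with H2S (SE 0.24, adjusted p = 0.0573) and 0.56 with air (SE 0.24, adjusted p = 0.296). By CyberT it passed with air (adjusted p = 0.0262). With H2S it passed without control mouse 5 (1.00, adjusted p = 0.0135), without H2S mouse 12 (0.92, adjusted p = 0.0408) or without air mouse 22 (0.80, adjusted p = 0.0465), and also by CyberT, with array weights, without dim probe sets and with an offset of 50.

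None of the 5 neutrophil-attracting CXC ligands passed the test in the fit of all 15 mice in any comparison, but Cxcl2 passed with H2S in 2 alternative fits. Cxcl2 read 107, 215, 154, 114 and 142 in H2S ventilated mice, 67.7, 169, 55.7, 59.1 and 108 in air ventilated mice, and 60.5, 151, 76.4, 92.2 and 58.7 in control mice. Its spread within groups was wide, with a single high mouse among the air ventilated (numbered 6) and among the controls (numbered 5). The fold change was 0.78 with H2S (SE 0.31, adjusted p = 0.15) and 0.02 with air (SE 0.31, adjusted p = 0.994). With H2S it passed by CyberT (adjusted p = 0.00368) and with runs of 4 running numbers as a block, at 0.82 (adjusted p = 0.0384). That block fit in effect left out the H2S ventilated mouse that was alone in its run. Cxcl1 read 137, 167, 151, 147 and 130.2 in H2S ventilated mice, 129, 132, 115, 152 and 125 in air ventilated mice, and 96.7, 134, 138, 132 and 140 in control mice, with fold changes of 0.20 with H2S and 0.04 with air (SE 0.11 each). Cxcl3, Cxcl5 and the epithelial lungkine Cxcl15 were at 0.11, -0.09 and -0.06 with H2S and at 0.19, -0.26 and -0.16 with air. The probe sets of Cxcl3 and Cxcl5 were dim.

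The promoters of the neighbours Cxcl1 and Cxcl2 on chromosome 5 are shown because they carry the same NF-kB stretch while their fold changes with H2S differ in size. Both lie on the plus strand of GRCm38.p6 (chr5:90890995-90891244 for Cxcl1, chr5:90903649-90903898 for Cxcl2), and capitals mark the NF-kB matches.
Cxcl1: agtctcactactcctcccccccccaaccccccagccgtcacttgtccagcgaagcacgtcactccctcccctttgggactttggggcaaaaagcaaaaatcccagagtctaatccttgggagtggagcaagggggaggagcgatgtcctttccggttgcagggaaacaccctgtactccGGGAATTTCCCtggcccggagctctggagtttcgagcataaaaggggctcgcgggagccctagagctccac
Cxcl2: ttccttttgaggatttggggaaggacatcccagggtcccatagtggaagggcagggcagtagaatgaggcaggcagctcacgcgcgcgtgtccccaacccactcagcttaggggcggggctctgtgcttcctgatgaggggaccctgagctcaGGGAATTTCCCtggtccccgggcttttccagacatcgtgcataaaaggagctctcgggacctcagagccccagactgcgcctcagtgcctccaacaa
The capitals hold 2 matches in each promoter that share 9 bases, since the stretch reads nearly the same on both strands. No difference between the fold changes of the 2 genes was tested.

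Ccl2, Ccl7, Ccl8 and Ccl12 were grouped here as monocyte-attracting ligands, although Ccl8 was paired with Ccr8 and not with Ccr2. None of them passed, with fold changes of -0.15 to 0.25 with H2S and -0.41 to 0.07 with air. With runs of 4 numbers as a block, Ccl12 passed with air (-0.41, adjusted p = 0.0479), though its probe set was dim. Ccr2, the receptor of Ccl2, Ccl7 and Ccl12, did not pass either, at -0.45 with H2S (SE 0.27, adjusted p = 0.408) and -0.58 with air (SE 0.27, adjusted p = 0.353). By CyberT, Ccr2 passed with air (adjusted p = 0.0249). Ccl7 was set by 1 mouse, reading 226, 584, 182, 219 and 163 in H2S ventilated mice, 148, 188, 151, 182 and 180.2 in air ventilated mice, and 200.5, 210, 185, 242 and 190.3 in control mice. The H2S ventilated mouse numbered 8 was the highest of all 15 mice for Ccl7 by a wide margin, and the remaining H2S ventilated mice overlapped with both groups. The Ccr1 ligands Ccl3, Ccl4 and Ccl5 were at 0.29, -0.10 and -0.35 with H2S and at -0.51, -0.07 and -0.31 with air, and none of them passed.

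Ccl17 and Ccl22 attract T cells bearing Ccr4 and are made by dendritic cells and macrophages. Ccl17 had the highest fold change of all members with H2S, at 0.96 (SE 0.30, adjusted p = 0.0615), and was at 0.36 with air (SE 0.30, adjusted p = 0.718). It read 1124, 1746, 741, 538 and 998 in H2S ventilated mice, 610.3, 923, 338, 536 and 959 in air ventilated mice, and 547, 458, 373, 505 and 593 in control mice. Values overlapped between all groups, with the H2S ventilated mouse numbered 20 inside the control range. With H2S it passed in 9 alternative fits, at fold changes of 0.90 to 1.17 and adjusted p of 0.00013 to 0.0499. These were CyberT (the test used by the study), the compared groups alone, a block by run of 4 running numbers and array weights. The others were dim probe sets removed, median centring, an offset of 50, and the fits without air mouse 10 or without H2S mouse 20. H2S mouse 20 is alone in its run, so the block fit in effect left it out too and is not separate from the fit without it. Ccl22 was at 0.25 with H2S and -0.26 with air (SE 0.23 each).

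The eotaxins Ccl11 and Ccl24, which attract eosinophils through Ccr3, were at 0.43 and -0.09 with H2S and at 0.11 and -0.08 with air, and Ccr3 at -0.38 (adjusted p = 0.0885) and -0.28 (adjusted p = 0.345). The interferon-inducible ligands Cxcl9, Cxcl10 and Cxcl11 were at -0.26 to -0.11 with H2S and -0.57 to -0.09 with air, and their receptor Cxcr3 at 0.01 and 0.16. None of these 7 genes passed the test in the fit of all 15 mice in any comparison. In alternative fits with H2S, Ccr3 passed with the number set as a block (-0.38, adjusted p = 0.0466) and Ccl11 by CyberT (0.43, adjusted p = 0.0322). Ccl25, a gut and thymus chemokine for Ccr9, was at 0.12 with H2S and 0.00 with air, Ccr9 at -0.17 and -0.20, and the lymphocyte chemokine Xcl1 at -0.05 and 0.09.

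Ccl20, an epithelial chemokine, and its receptor Ccr6 of B cells, T cells and dendritic cells, stood close to the threshold. Ccl20 read 143, 121, 145, 199 and 183 in H2S ventilated mice, 313, 139, 294, 250.4 and 254 in air ventilated mice, and 149, 156, 134, 177 and 159 in control mice. In 4 of 5 air ventilated mice it exceeded every mouse of the other groups, and the mouse numbered 6 did not. Ccl20 was at 0.01 with H2S (SE 0.19, adjusted p = 0.986) and 0.64 with air (SE 0.19, adjusted p = 0.077). Ccr6 was at -0.46 with H2S (SE 0.15, adjusted p = 0.0681) and -0.52 with air (SE 0.15, adjusted p = 0.0643). With air, Ccl20 passed without air mouse 6 (0.84, adjusted p = 0.00719), and Ccr6 passed without control mouse 21 (-0.62, adjusted p = 0.0239), air mouse 22 (-0.62, adjusted p = 0.0215) or H2S mouse 28 (-0.52, adjusted p = 0.0475). With H2S, Ccr6 passed without control mouse 21 (-0.56, adjusted p = 0.0272) or air mouse 22 (-0.46, adjusted p = 0.0479), by CyberT (0.0337) and with array weights (0.0274). Both genes passed with air by CyberT (0.00227 for Ccl20, 0.0252 for Ccr6) and with array weights (0.0126 and 0.0218). With air, Ccl20 also passed without dim probe sets (0.0434) and Ccr6 in mice numbered 1 to 12 (0.0169). The probe set of Ccr6 was dim, below the level used to drop dim probe sets.

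**Figure D3:**
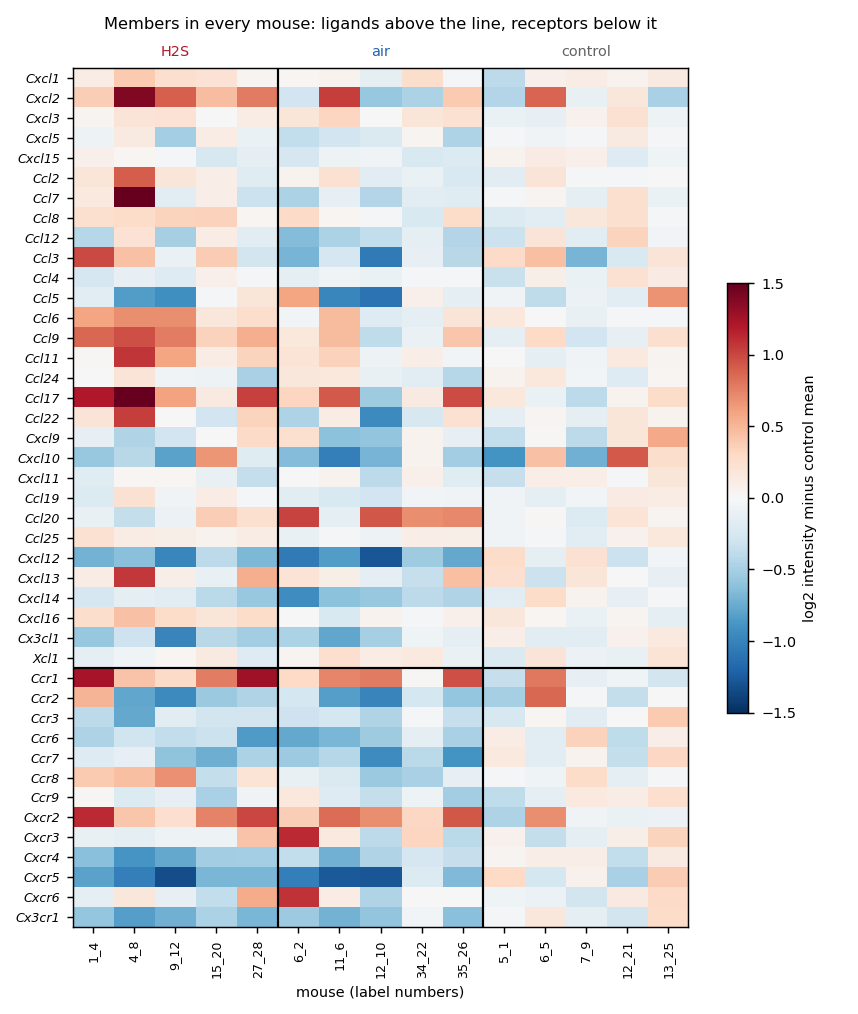
Log2 intensity minus the control mean for all 43 members in every mouse, with H2S ventilated mice on the left, air ventilated mice in the middle and control mice on the right (each named by first and running number) and the colour scale capped at 1.5 either way. The H2S ventilated mouse 4_8 was the highest of its group for 19 members and the air ventilated mouse 34_22 for 18, and Cxcl12, Cxcr4 and Cxcr5 are blue in all ventilated mice.

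No mouse was the highest or lowest of its group for all members, but single mice were so for many. The H2S ventilated mouse 4_8 was the highest of its group for 19 of 43 members and the lowest for 6, and the air ventilated mouse 12_10 was the lowest of its group for 19 members and the highest for 1. In control mice, 13_25 was highest for 16 members and 5_1 lowest for 15. The median SD of the members on the log2 scale was 0.26 in H2S ventilated, 0.26 in air ventilated and 0.22 in control mice. The widest spread was that of Ccl7 with H2S (0.73), Ccl5 with air (0.72) and Cxcl10 in controls (0.78).

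Between H2S ventilated and air ventilated mice, the direct comparison of H2S under ventilation, no member passed the test, and none met the study's thresholds. Over all probe sets, 0.0705% were higher and 0.00705% lower at an adjusted p under 0.05, and 0.0599% met the study's thresholds. The lowest adjusted p of a member was 0.275, for Cxcl16. At an unadjusted p under 0.05 there were 9 higher members (20.9%) and 1 lower (2.3%), where the shares over all probe sets were 2.97% and 2.71%. These members were read in the same mice, so they are not separate results. H2S mouse 8 was the highest of its group for 19 of the 43 members, and air mouse 10 the lowest of its group for 19. Among the 9 higher members these include Ccl6, Ccl7, Ccl9, Cxcl2, Cxcl14 and Cxcl16 for H2S mouse 8. For air mouse 10 they include Ccl3, Ccl6, Ccl9, Cxcl2 and Ccr8. CyberT, the test that the study used, passed 3 members in this comparison (Ccl20, Ccl3 and Ccl9). The list median of the difference was 0.16, beside -0.0080 over all probe sets.

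Cxcl16 differed by 0.31 between H2S and air (95% interval 0.14 to 0.48, unadjusted p = 0.00134) and was the only member with no overlap between these groups, where 0.691% of all probe sets were apart on the higher side and 0.511% on the lower. Ccl9 differed by 0.58 (0.23 to 0.94, adjusted p = 0.397) and Ccl6 by 0.43 (0.15 to 0.71, adjusted p = 0.46). For all 3 the difference had the same sign in both number sets, at 0.38 and 0.20 for Cxcl16, 0.78 and 0.28 for Ccl9, and 0.58 and 0.19 for Ccl6.

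Ccl3, a macrophage chemokine for Ccr1, had the largest difference of the list at 0.80 (95% interval 0.26 to 1.33, adjusted p = 0.477). It read 615, 420.3, 290, 406 and 257 in H2S ventilated mice and 192, 260.4, 149, 285 and 233 in air ventilated mice. Control mice overlapped with both groups, at 378, 424, 191, 266 and 354. The difference was 1.11 in mice numbered 1 to 12 and 0.33 in those numbered 20 to 28.

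Ccr8, a receptor of T cell subsets, read 75.1, 77.9, 92.3, 44.5 and 66.2 in H2S ventilated mice and 53.1, 49.3, 39.0, 40.9 and 52.6 in air ventilated mice, beside 55.8, 54.8, 69.0, 51.7 and 56.0 in control mice. The H2S ventilated mouse numbered 20 alone fell among the air ventilated mice. The difference was 0.57 (0.23 to 0.91, adjusted p = 0.358), and without that mouse it was 0.73 and passed (adjusted p = 0.0328). The probe set of Ccr8 was dim, below the level used to drop dim probe sets in an alternative fit. Ccl20 ran the other way at -0.63 (-1.03 to -0.24, adjusted p = 0.419), and without air mouse 6 it was -0.83 and passed (adjusted p = 0.0236). The signs were the same in both number sets, at 0.80 and 0.23 for Ccr8 and at -0.78 and -0.40 for Ccl20.

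Cxcl2 differed by 0.76 (0.10 to 1.42, adjusted p = 0.737), Ccl7 by 0.53 (0.00 to 1.05, adjusted p = 0.876), Ccl22 by 0.52 (0.03 to 1.00, adjusted p = 0.822) and Cxcl14 by 0.28 (0.04 to 0.53, adjusted p = 0.736). In mice numbered 1 to 12 these differences were 0.82, 0.84, 0.84 and 0.51, and in mice numbered 20 to 28 they were 0.67, 0.06, 0.03 and -0.06, so those of Ccl7, Ccl22 and Cxcl14 were close to 0 in the second set. Ccl7 without the H2S ventilated mouse numbered 8 was at 0.21. Other members that had passed against control had intervals between H2S and air that included 0. Cxcl12 was at 0.22 (-0.09 to 0.53), Cxcr4 at -0.23 (-0.47 to 0.01), Cx3cr1 at -0.16 (-0.43 to 0.12), Cxcr5 at -0.02 (-0.47 to 0.43), Cx3cl1 at -0.17 (-0.47 to 0.13), Ccr7 at 0.21 (-0.11 to 0.54) and Cxcr2 at 0.08 (-0.36 to 0.51). These intervals leave room for differences in either direction.

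**Figure D4:**
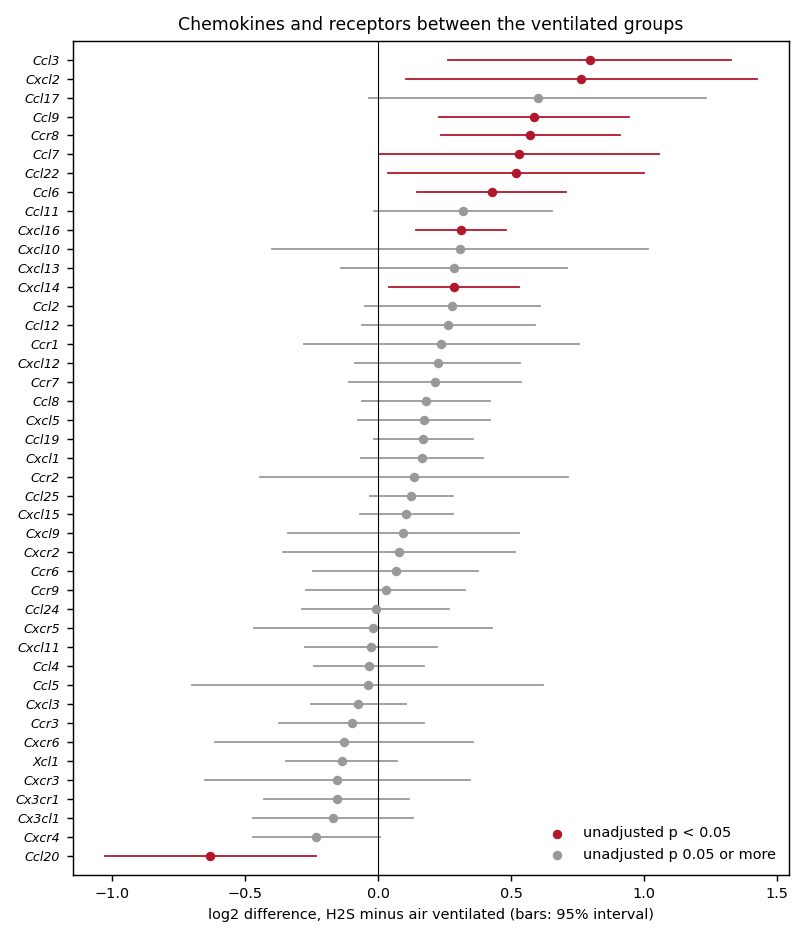
Log2 difference between H2S ventilated and air ventilated mice for the 43 members, ordered by size, with 95% intervals from the limma fit and 5 mice per group. Red marks the 10 members with an unadjusted p under 0.05, 9 on the positive side and Ccl20 on the negative side, none of which passed after adjustment.

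**Figure D5:**
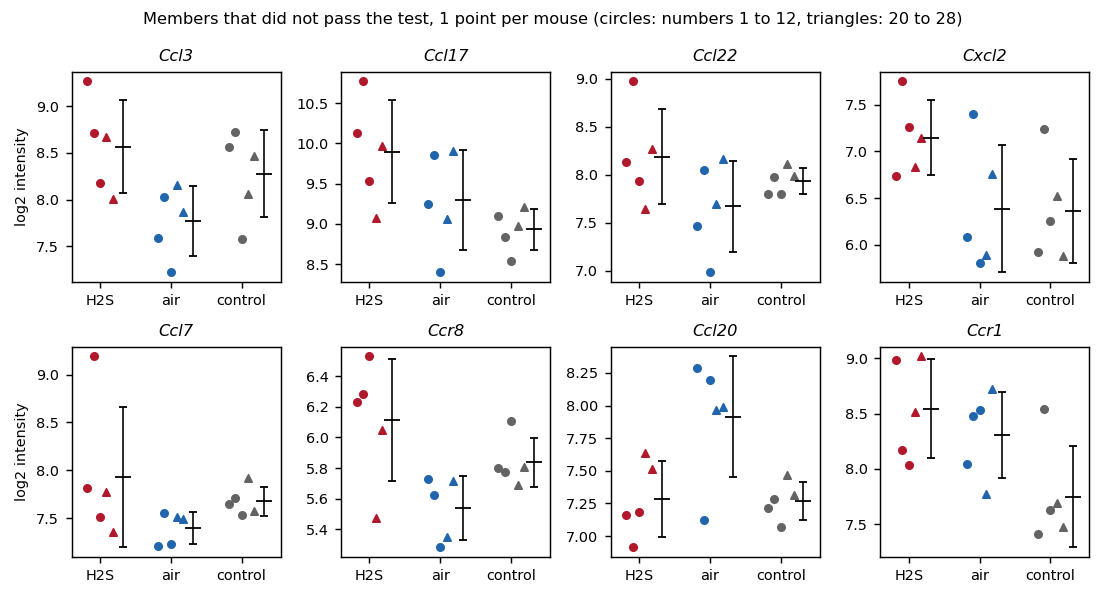
Log2 intensity in every mouse for 8 members near the threshold or among the larger differences between the ventilated groups, with H2S ventilated (left), air ventilated (middle) and control mice (right), 1 point per mouse and bars for the mean and SD of 5 mice. Single mice stand apart for Ccl7 (H2S ventilated), Ccl20 (air ventilated) and Ccr1 (control), and groups overlap in every panel.

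By kind, 1 of 13 receptors rose and 3 fell with H2S, and 0 rose and 4 fell with air, where 3.92% and 3.93% of all probe sets did so with H2S and 1.56% and 1.89% with air. Of 30 ligands, 3 rose and 2 fell with H2S, and 0 rose and 2 fell with air. The median fold change of the receptors was -0.38 with H2S and -0.30 with air, and that of the ligands 0.06 and -0.07. Both members of the pair Cxcl12 and Cxcr4 passed on the lower side in both comparisons with control, and both members of the pair Cx3cl1 and Cx3cr1 with H2S. For the pairs Cxcl13 and Cxcr5, Ccl19 and Ccr7, and Cxcl16 and Cxcr6, 1 member alone passed in any comparison.

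Position was not used to choose the members. Of 42 members placed in the RefSeq gene order, 21 lay directly next to another member. In the run Ccl5, Ccl9, Ccl6, Ccl3 and Ccl4 on chromosome 11, the fold changes with H2S were -0.35, 0.70, 0.48, 0.29 and -0.10, so the 2 that passed were adjacent, with Ccl5 below 0 on one side and Ccl3 above 0 on the other. In the second run on this chromosome, Ccl2, Ccl7, Ccl11, Ccl12 and Ccl8, they were 0.24, 0.25, 0.43, -0.15 and 0.24, and none passed. On chromosome 8, Ccl22, Cx3cl1 and Ccl17 stand next to each other, and their fold changes with H2S were 0.25, -0.56 and 0.96. On chromosome 9, Cx3cr1 and Ccr8 are neighbours and were at -0.66 and 0.28.

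Of 23 further genes of the chemokine system that were measured, 1 rose and 2 fell with H2S, and 1 rose and 1 fell with air, beside 3.92% and 3.93% of all probe sets with H2S and 1.56% and 1.89% with air. The same gene rose in both, Ackr2, an atypical receptor that clears inflammatory CC chemokines. It ranged from 914 to 1453 (median 1299) in H2S ventilated and from 953 to 1650 (median 1138) in air ventilated mice, against 565 to 816 (median 719) in control mice, with fold changes of 0.87 (SE 0.16, adjusted p = 0.00287) and 0.77 (SE 0.16, adjusted p = 0.0109). Ackr4, which clears Ccl19, Ccl21 and Ccl25, fell by 0.77 with H2S (SE 0.12, adjusted p = 0.000995) and by 0.61 with air (SE 0.12, adjusted p = 0.00829). It ranged from 99.8 to 157 in H2S ventilated and from 111 to 159 in air ventilated mice, against 194 to 215 in control mice. For both atypical receptors no ventilated mouse overlapped with a control, as for 4.11% (higher) and 4.09% (lower) of all probe sets with H2S and 2.65% and 2.9% with air. Ccrl2, a receptor that presents chemerin, fell by 0.46 with H2S (SE 0.13, adjusted p = 0.0443) and was at -0.46 with air (adjusted p = 0.0743). Between H2S and air none of the 23 passed, with Ackr2 at 0.10 and Ackr4 at -0.17.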

How the data were processed

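Whole-lobe RNA of 15 mice was hybridised to Affymetrix whole-transcript arrays, 1 array per mouse. The authors subtracted a GC background, quantile normalised and summarised probes by RMA, and the deposited table holds these values as linear intensity, of which log2 was taken here. Gene names came from the platform annotation, in which 21780 probe sets have 1 symbol, 1617 several and 4964 none. Groups followed the treatment labels. One limma model (version 3.58.1 in R 4.3.3) with eBayes was fitted over all 15 arrays and 28361 probe sets, with Benjamini-Hochberg adjustment over all of them, in place of the study's CyberT test, which was run as an alternative. The fits were tested on simulated data. Precision rests on 5 mice per group, since intensities carry no counts. The members, role groups and marker lists were chosen with earlier results of these data known. Members that passed are described in full, as are the nearest that missed and those with an unadjusted p under 0.05 between the ventilated groups. Alternatives were CyberT, the compared groups alone, number set or run of 4 running numbers as a block, each number set alone, array weights, a variance trend, removal of dim probe sets, renewed quantile normalisation, median centring, an offset of 50, the mean of a gene's probe sets, and leaving out each mouse. Mice of different groups in the same run of 4 numbers correlated on average at 0.18 in their deviations (-0.18 to 0.36 over 13 pairs). Those in different runs correlated at -0.037. The labels do not say that the numbers pair mice, so runs entered only an alternative fit. Of 30 further chemokine-system genes listed, 23 were measured alone on a probe set. Sequences are from RefSeq.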

Additional observations from a re-analysis of the deposited data

Results flagged for a closer look

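Each member was checked in each group of 5 mice on the log2 scale, though the readings given here are intensities. It was singled out when the gap between its highest or lowest mouse and the nearest other was more than 0.71 of the group's range. Chance does this in about 1 in 20 groups, or 6.45 of the 129 groups formed by 43 members, and 9 were found, 2 with H2S, 2 with air and 5 in controls. For Ccl7 the H2S ventilated mouse 4_8 read 583.7, with a median of 200.3 in the other 4. For Cxcr3 the H2S ventilated mouse 27_28 read 211.1, with 147.3 in the others. For Ccl20 the air ventilated mouse 11_6 read 139.3, with 273.8 in the others, and for Cx3cr1 the air ventilated mouse 34_22 read 344.9, with 231.6. Among controls, Ccr1 was 373.2 in mouse 6_5 (187.9 in the others), Ccr8 was 68.95 in mouse 7_9 (55.34) and Cxcl1 was 96.66 in mouse 5_1 (135.9). Control mouse 12_21 was low for Cxcr4 at 1393 (1924 in the others) and high for Cxcl5 at 32.42 (28.97).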

How the results depend on the processing

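Counts of members that passed depended on the test and on single mice. With H2S against control, 9 passed in the full model, 15 by CyberT, 5 in mice numbered 1 to 12, 0 in mice numbered 20 to 28 and 5 to 11 with 1 mouse left out, at 5 without control mouse 13_25 or 7_9. With air against control, 6 passed in the full model, 12 by CyberT, 3 when only the compared groups were fitted, 0 in mice numbered 20 to 28 and 2 to 7 with 1 mouse left out, at 2 without control mouse 13_25, 5_1 or 7_9 or air mouse 12_10 and at 3 without air mouse 35_26 or 6_2. Between H2S and air, 0 passed in the full model, 3 by CyberT and 0 to 1 with 1 mouse left out, that 1 being Ccl20 without air mouse 11_6 and Ccr8 without H2S mouse 15_20.

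At the study's thresholds, 2 members were called with H2S, 4 by CyberT or with array weights, 5 in mice numbered 1 to 12, 1 with the number set as a block, a variance trend, renewed quantile normalisation or an offset of 50, 0 in mice numbered 20 to 28, and 1 to 5 with 1 mouse left out (5 without control mouse 6_5). With air, 2 were called, 1 without dim probe sets or with an offset of 50, 0 in mice numbered 20 to 28 and 2 to 3 with 1 mouse left out. Between H2S and air, 1 was called by CyberT and 0 to 1 with 1 mouse left out. The 23 other chemokine-system genes gave 3 with H2S, 6 by CyberT or without dim probe sets, 5 with the number set as a block, a variance trend or an offset of 50, and 0 in mice numbered 20 to 28. With air they gave 2, 4 by CyberT, with a variance trend or without dim probe sets, and 0 in mice numbered 20 to 28. With 1 mouse left out they gave 2 to 3 in both comparisons with control and 0 between H2S and air. Fits of 1 number set hold fewer mice. The fit without dim probe sets removes the probe set of Cxcr5, so that gene was not tested there. For the other settings the cause was not tested.

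Over all 43 members, 3 comparisons and these alternatives, 3436 of 3579 tests stayed on the same side of the threshold, 96 lost and 47 gained the call. Most of these tests concern members that had not passed in the full model and so had no call to lose. The losses fell on the 6 members that passed with air and the 9 with H2S, 48 in each comparison. Among the members described most closely, the only change of sign was that of Cxcl14 between H2S and air in mice numbered 20 to 28 (-0.062). A block by run of 4 numbers lost the calls of Cxcr4 (adjusted p = 0.0683) and Cx3cr1 (0.0899) with air and of Cxcl16 (0.0689) and Cxcr2 (0.128) with H2S, and gained those of Ccl12 with air (0.0479) and of Ccl17 (0.00673) and Cxcl2 (0.0384) with H2S. No running number is shared between groups, and that block groups mice by running number alone. Some first numbers are shared, such as 12 (control 12_21 and air 12_10) and 6 (control 6_5 and air 6_2). First numbers entered no fit. H2S mouse 15_20 is alone in its run, so the block fit in effect leaves that mouse out. Of the 43 members, 32 lay above the level used to drop dim probe sets. Below it were Ccl4, Ccl8, Ccl12, Ccl24, Cxcl3, Cxcl5, Cxcl11, Xcl1, Ccr6, Ccr8 and Cxcr5. Dim probe sets lie close to background, which limits the precision of their fold changes.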
